A study of Mus musculus with 12 samples.

Results

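The genes described here are 39 ligands, latency proteins, receptors, SMADs, modulators and response genes of the TGFβ, activin and BMP pathways, out of the 20775 genes listed at each of 2 stages of Med30 loss in the mouse heart. They were picked by symbol for their roles in these pathways, from a list drawn up with earlier results of these data known, and all 39 were found in both tables. They fall into 11 roles, from the TGFβ ligands to the Id response genes. The samples were whole hearts of mouse embryos at E10.5 and cardiomyocytes isolated from adult mice 4 weeks after tamoxifen, all taken for RNA-seq, with 3 samples in each of 4 groups. Expression was deposited as RPKM, which divides the reads of a gene by its length and by the total of the library. MED30 is a subunit of Mediator, the complex that passes signals from transcription factors to RNA polymerase II.

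At E10.5, cKO hearts came from Med30 f/f embryos carrying Tnnt-Cre, and Ctrl hearts came from littermates with no Cre. At 4 weeks, icKO cardiomyocytes came from Med30 f/f mice carrying the tamoxifen-inducible αMHC-MerCreMer, and the labels give an age of 3 months. Ctrl animals carried no Cre at either stage, so Cre and the loss of Med30 cannot be told apart, and the labels call these controls WT. Both drivers act in cardiomyocytes, so the other cells of the whole E10.5 hearts kept the gene. All animals descend from 1 floxed line, in which exon 1 of Med30 is flanked by loxP sites. Because samples were bulk RNA, fewer cells of a type and less RNA per cell cannot be told apart. The labels do not say whether samples of 1 group came from separate animals or pools, so p-values measure the spread between these samples.

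As background, TGFβ ligands are secreted in a latent form that is tied to the extracellular matrix by latent TGFβ binding proteins (LTBPs). Once freed, a ligand joins type 2 and type 1 receptors, which phosphorylate SMAD2 and SMAD3 for TGFβ and activin, or SMAD1, SMAD5 and SMAD9 for BMPs. SMAD4 is the partner of both branches, SMAD6 and SMAD7 restrain them, and the Id genes are classic BMP response genes. In the embryonic heart BMPs act in the growth of the trabeculae and in the cushions, and in the adult heart TGFβ is known above all for its part in fibrosis.

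Med30, the targeted gene, had 10.6, 13.3 and 11.3 RPKM in Ctrl and 1.38, 2.02 and 1.004 RPKM in cKO hearts (log2 fold change −2.96, limma adjusted p = 0.000367). At 4 weeks it had 7.66, 7.45 and 7.66 RPKM in Ctrl and 3.81, 3.16 and 1.82 RPKM in icKO cardiomyocytes (log2 fold change −1.40, limma adjusted p = 0.000403). The spacing of low RPKM gave approximate depths of 13.7 to 19.99 M reads per library at E10.5 and 11.97 to 17.5 M at 4 weeks. A floor of 3 reads on a 2 kb transcript was 0.0751 to 0.109 RPKM at E10.5 and 0.0855 to 0.125 RPKM at 4 weeks, for counting error only. The adult libraries differed in composition: the 20 most abundant genes took 24.2% to 24.8% of the summed RPKM in Ctrl and 10.7% to 12.2% in icKO. With it, the median change over all tested genes stood at 0.57 on the log2 scale at 4 weeks, against −0.13 at E10.5. Counts of called genes at 4 weeks are therefore given on the RPKM as deposited and after median-ratio scaling, which brings the median gene to 0.01 (−0.01 at E10.5).

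In E10.5 hearts, no gene of the pathway was called in either direction, on either scaling. The call asked for both a change beyond 1 on the log2 scale and an adjusted p below 0.05, from limma on log2(RPKM + 0.1), a scale that understates changes of low genes. With this rule, 0.239% of the 10885 genes tested were called higher and 0.542% lower (0.322% and 0.377% after median-ratio scaling). Of the 39 genes, 36 passed the filter of a mean RPKM above 1, and Ltbp2, Inhba and Inhbb did not. Their log2 fold changes ran from −0.94 to 0.50 with a median of 0.01, with 20 above 0 and 16 below. The 95% interval of the change lay within 1 log2 unit of 0 for 34 of the 36. The exceptions were Bmp2, with 5.29, 6.47 and 3.60 RPKM in Ctrl and 3.52, 0.745 and 6.02 RPKM in cKO, and Smad9 (log2 fold change −0.32, 95% interval −1.02 to 0.37). Bmp2, a ligand of cushion formation, varied among the cKO hearts by more than the groups differed. At an unadjusted p under 0.05 there were 5 of the 36, namely Ltbp1, Bmp10, Eng, Ski and Id2, where 23.6% of all genes tested met that threshold.

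Id2, an inhibitor of bHLH transcription factors, was the 1 pathway gene past an adjusted p of 0.05 at E10.5, where 3.45% of all genes were lower and 0.864% higher by that threshold alone. It had 61.6, 55.2 and 47.2 RPKM in Ctrl and 37.0, 32.9 and 38.2 RPKM in cKO hearts. The lowest Ctrl heart was still above the highest cKO heart (log2 fold change −0.60, standard error 0.129, limma adjusted p = 0.0374). Leaving out 1 library kept the change between −0.70 and −0.51, but the adjusted p rose above 0.05 without any of Ctrl replicates 1, 2 or 3 and cKO replicates 1 or 2 (0.0379 to 0.135 over the 6 fits). Id1 and Id3, its relatives, were at −0.06 and −0.16 on the log2 scale, with limma adjusted p = 0.861 and 0.588. Bmp10, the ligand of trabecular myocardium, had 30.3, 21.1 and 26.4 RPKM in Ctrl and 34.8, 39.4 and 35.1 RPKM in cKO hearts. The cKO samples were all higher, and the test was not passed on the deposited scale (log2 fold change 0.50, limma adjusted p = 0.0722). After median-ratio scaling, 4 genes were past an adjusted p of 0.05 upwards (2.49% of all genes) and Id2 alone downwards (2.56%). These were Bmp10 (0.62, limma adjusted p = 0.0204), the latency protein Ltbp1 (0.51, 0.0280), the coreceptor Eng (0.48, 0.0188) and the corepressor Ski (0.45, 0.0301).

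The most abundant ligand transcripts of the E10.5 heart per length were Bmp10 (25.9 ± 4.59 RPKM, SD, n = 3 Ctrl hearts), Bmp7 (22.2 ± 1.13) and Tgfb2 (13.2 ± 2.58). Tgfb2 took 56.8% ± 1.70 of the summed RPKM of the 3 TGFβ ligands in Ctrl hearts and 53.0% ± 10.6 in cKO (both SD, n = 3). Its values were 16.2, 11.98 and 11.5 RPKM in Ctrl and 10.2, 7.90 and 18.9 RPKM in cKO hearts, and the groups overlapped. Among receptors, Bmpr1a, a type 1 receptor for BMPs, averaged 25.1 ± 1.18 RPKM in Ctrl hearts and 22.3 ± 1.93 RPKM (both SD, n = 3) in cKO hearts (log2 fold change −0.17, limma adjusted p = 0.362). Markers of erythroid cells summed to 115 to 363 RPKM in Ctrl and 170 to 944 RPKM in cKO hearts. Cardiomyocyte markers summed to 4776 to 7514 RPKM in Ctrl and 3317 to 4324 RPKM in cKO hearts. Of these 10 markers, 1 was called lower, Pln (0.542% of all genes were called lower). Myl2, the most abundant of them, averaged 3105 RPKM in Ctrl and 1436 RPKM in cKO and was not called. Myh6, Tnnt2 and Actn2 were at −0.07, −0.45 and 0.04 on the log2 scale. The part of these differences in the pathway values was not tested.

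**Figure D1:**
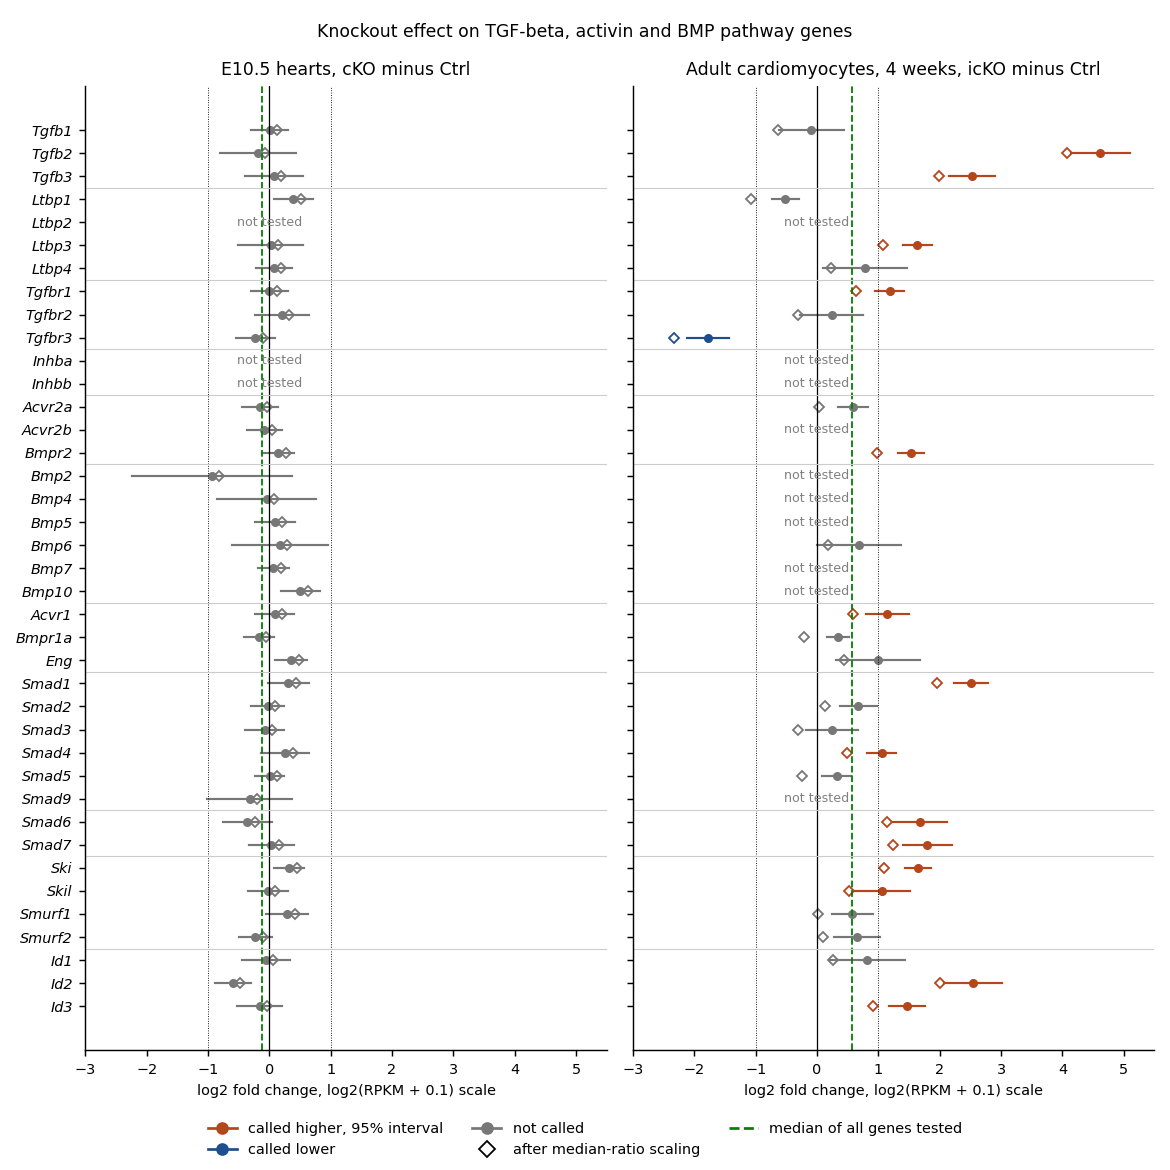
Knockout minus Ctrl (log2 fold change, x axis) of each pathway gene at E10.5 (left) and 4 weeks (right), with filled points and 95% intervals on the deposited RPKM, open diamonds after median-ratio scaling, dotted lines at 1 log2 unit and a dashed line at the median of all genes tested. At E10.5 no gene is called, whereas at 4 weeks 14 are called higher and Tgfbr3 lower, with Tgfb2 farthest to the right at 4.62.

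In adult icKO cardiomyocytes, 14 pathway genes were higher and 1 was lower than in Ctrl, among the 29 of 39 that passed the filter. Over all 9517 genes tested, 28.0% were called higher and 8.45% lower, and the 14 and the 1 are to be read against these shares. After median-ratio scaling 8 were higher (11.1% of all genes) and 2 were lower (15.9%). The 8 were Tgfb2, Tgfb3, Ltbp3, Smad1, Smad6, Smad7, Ski and Id2, all of them among the 14. Id2 averaged 0.783 RPKM in Ctrl, under the filter, and was tested only because its icKO samples were high. The same held for Bmp6 (0.81 RPKM in Ctrl), which was not called. The 6 others, Tgfbr1, Bmpr2, Acvr1, Smad4, Skil and Id3, were called on the deposited RPKM alone. The gene lower on both scalings was Tgfbr3, and Ltbp1 was added after median-ratio scaling. By the adjusted p alone, 23 of the 29 were higher (60.6% of all genes) and 2 lower (18.1%), or 14 (33.6%) and 5 (34.6%) after median-ratio scaling. The median log2 fold change of the 29 was 0.99 against 0.57 for all genes tested, and 0.43 against 0.01 after median-ratio scaling.

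The TGFβ ligands moved apart. Tgfb2, on chromosome 1 of GRCm38 from 186622792 to 186705989, had 0.752, 1.33 and 1.32 RPKM in Ctrl and 29.8, 34.9 and 24.5 RPKM in icKO cardiomyocytes. Every icKO sample was far above every Ctrl sample, and the mean was 26.2 times that of Ctrl (log2 fold change 4.62, standard error 0.214, limma adjusted p = 3.95e-07). The change was 4.08 after median-ratio scaling and between 3.85 and 4.75 over all alternatives. Tgfb3 had 1.004, 1.47 and 0.990 RPKM in Ctrl and 6.80, 7.10 and 7.28 RPKM in icKO cardiomyocytes. Its icKO values were close together and all higher (log2 fold change 2.53, standard error 0.164, limma adjusted p = 1.62e-06; 1.99 after median-ratio scaling). Tgfb1, the most studied isoform, had 2.71, 2.92 and 2.301 RPKM in Ctrl and 2.69, 1.67 and 3.30 RPKM in icKO cardiomyocytes. Its groups overlapped (log2 fold change −0.09, 95% interval −0.62 to 0.43, limma adjusted p = 0.723). After median-ratio scaling its change was −0.64 (limma adjusted p = 0.0426), and without 1 library at a time it ran from −0.30 to 0.17.

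The make-up of the ligand pool does not depend on how a library is scaled. Within the summed RPKM of Tgfb1, Tgfb2 and Tgfb3, Tgfb1 took 60.7%, 51.1% and 49.9% in Ctrl and 6.85%, 3.84% and 9.4% in icKO cardiomyocytes. Tgfb2 took 16.8%, 23.2% and 28.6% in Ctrl and 75.8%, 79.9% and 69.8% in icKO cardiomyocytes. Tgfb1 had the largest share in every Ctrl library and Tgfb2 in every icKO library, and Tgfb2 also had the largest share in every E10.5 heart. Its sum was 4.94 ± 0.690 RPKM in Ctrl cells and 39.3 ± 4.28 RPKM in icKO cells (both SD, n = 3). These shares were looked at after the values of the single genes had been seen, and carry no test.

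**Figure D2:**
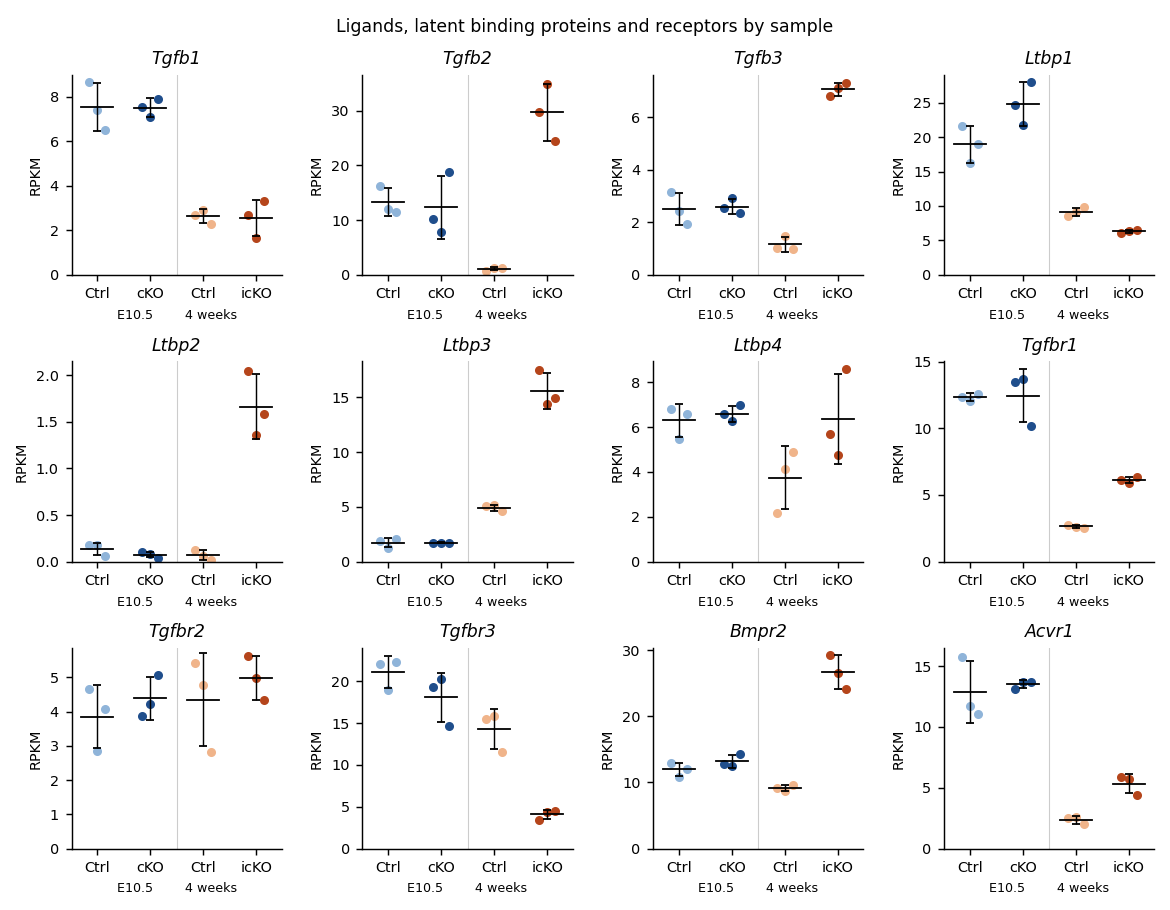
RPKM of 12 ligand, latent binding protein and receptor genes in every sample (points), with the mean and SD of each group of 3, for E10.5 Ctrl and cKO hearts and 4 week Ctrl and icKO cardiomyocytes, each panel on its own linear axis from 0. Tgfb2, Tgfb3, Ltbp2 and Ltbp3 stand higher in all 3 icKO samples and Tgfbr3 lower, while Tgfb1, Ltbp4 and Tgfbr2 overlap between the groups.

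The latent TGFβ binding proteins, which hold latent ligand in the matrix, also went in different directions. Ltbp3 had 5.05, 5.15 and 4.62 RPKM in Ctrl and 17.5, 14.4 and 14.9 RPKM in icKO cardiomyocytes (log2 fold change 1.63, standard error 0.106, limma adjusted p = 1.61e-06; 1.08 after median-ratio scaling). Ltbp1 had 8.52, 9.10 and 9.79 RPKM in Ctrl and 6.12, 6.32 and 6.58 RPKM in icKO cardiomyocytes, where all samples were lower (log2 fold change −0.52, standard error 0.0956, limma adjusted p = 0.000857). It was called lower after median-ratio scaling alone (−1.08, limma adjusted p = 1.94e-05). Ltbp2 was under the filter, with 0.126, 0.060 and 0.018 RPKM in Ctrl and 2.04, 1.36 and 1.58 RPKM in icKO cardiomyocytes. With no filter it was called higher (log2 fold change 3.42, limma adjusted p = 2.3e-05; 3.06 after median-ratio scaling), and 1 Ctrl library held no more than 3 reads of it. Ltbp4 had 2.18, 4.14 and 4.90 RPKM in Ctrl and 5.70, 4.77 and 8.60 RPKM in icKO cardiomyocytes, and the groups overlapped (log2 fold change 0.78, limma adjusted p = 0.0389). Without Ctrl replicate 3 the change in Ltbp4 was 1.01 and was called. Of the LTBP pool, Ltbp1 took 51.2% ± 2.22 in Ctrl and 21.3% ± 2.08 in icKO, and Ltbp3 27.9% ± 3.94 and 52.2% ± 4.49 (SD, n = 3).

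Of the 3 TGFβ receptors, the coreceptor fell and a signalling receptor rose. Tgfbr3 (betaglycan), which presents ligand and in particular TGFβ2 to the signalling receptors, had 15.5, 15.8 and 11.5 RPKM in Ctrl and 3.43, 4.34 and 4.46 RPKM in icKO cardiomyocytes. All icKO samples were lower (log2 fold change −1.78, standard error 0.153, limma adjusted p = 7.48e-06; −2.33 after median-ratio scaling). Tgfbr1, the type 1 receptor, had 2.76, 2.63 and 2.54 RPKM in Ctrl and 6.11, 5.89 and 6.37 RPKM in icKO cardiomyocytes (log2 fold change 1.18, standard error 0.105, limma adjusted p = 9.23e-06), and was not called after median-ratio scaling (0.63, limma adjusted p = 0.000716). Tgfbr2, the type 2 receptor, had 5.43, 4.79 and 2.82 RPKM in Ctrl and 5.62, 4.97 and 4.34 RPKM in icKO cardiomyocytes, with overlap (log2 fold change 0.24, 95% interval −0.28 to 0.75). Tgfbr3 went from 67.2% ± 1.58 of the receptor pool to 26.9% ± 3.68, and Tgfbr1 from 12.7% ± 2.07 to 40.3% ± 1.61 (SD, n = 3).

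Among the activin and BMP receptors, Bmpr2, the BMP type 2 receptor, had 9.13, 8.74 and 9.55 RPKM in Ctrl and 29.3, 26.6 and 24.2 RPKM in icKO cardiomyocytes. The groups were far apart (log2 fold change 1.53, standard error 0.0952, limma adjusted p = 1.32e-06), and the change lay just under the fold threshold after median-ratio scaling, at 0.97. Acvr1, a BMP type 1 receptor, had 2.48, 2.58 and 2.02 RPKM in Ctrl and 5.90, 5.70 and 4.42 RPKM in icKO cardiomyocytes (log2 fold change 1.14, standard error 0.154, limma adjusted p = 0.000122; 0.59 and not called after median-ratio scaling). Exons of Acvr2a and Eng overlap those of Orc4 and Fpgs on the other strand, as do those of Bmp4 and Bmp6 with Gm15217 and Txndc5, and whether reads were counted by strand is not given in the sources used here, so the reads of such pairs may not be told apart. Bmpr1a had 15.3, 16.3 and 16.5 RPKM in Ctrl and 21.3, 20.2 and 19.7 RPKM in icKO cardiomyocytes. Acvr2a, an activin type 2 receptor, had 3.36, 3.63 and 3.60 RPKM in Ctrl and 5.84, 5.11 and 5.12 RPKM in icKO cardiomyocytes. In both, all icKO samples were above Ctrl but neither was called, with log2 fold changes of 0.34 and 0.58 that became −0.22 and 0.03 after median-ratio scaling. Acvr2b, the relative of Acvr2a, was under the filter, with 1.27, 1.31 and 1.04 RPKM in Ctrl and 0.751, 0.534 and 0.510 RPKM in icKO cardiomyocytes. With no filter its change was −0.92 (limma adjusted p = 0.00886), and −1.39 after median-ratio scaling, where it was called lower. Eng, a coreceptor that endothelial cells make in quantity, had 1.92, 3.58 and 5.12 RPKM in Ctrl and 6.59, 5.57 and 7.86 RPKM in icKO cardiomyocytes (log2 fold change 0.99, limma adjusted p = 0.0142; 0.43 after median-ratio scaling). It was called without Ctrl replicate 2, Ctrl replicate 3 or icKO replicate 2 (1.05, 1.30 and 1.11). The endothelial marker Cdh5 had 1.93, 4.06 and 5.98 RPKM in the same Ctrl samples and 6.21, 5.19 and 11.1 RPKM in icKO, with Ctrl replicate 1 lowest for both genes, and its part in the Eng values was not tested.

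The BMP and activin ligands were low in adult cardiomyocytes. The 6 BMP transcripts summed to 1.38 ± 0.448 RPKM in Ctrl cells and 2.11 ± 0.313 RPKM in icKO cells, against 70.3 ± 4.56 RPKM in E10.5 Ctrl hearts (all SD, n = 3; the tables of the stages were scaled apart). Bmp6 alone passed the filter, with 0.479, 0.871 and 1.08 RPKM in Ctrl and 1.28, 1.05 and 1.64 RPKM in icKO cardiomyocytes (log2 fold change 0.69, limma adjusted p = 0.0621). Its Ctrl mean of 0.81 RPKM was under the filter, so it passed only through icKO. Bmp4 had 0, 0.205 and 0.030 RPKM in Ctrl and 0.336, 0.586 and 0.517 RPKM in icKO cardiomyocytes. It was called higher with no filter (log2 fold change 1.85, limma adjusted p = 0.00475; 1.54 after median-ratio scaling), although 2 of its Ctrl libraries held no more than 3 reads. Bmp7 had 0.391, 0.371 and 0.577 RPKM in Ctrl and 0.177, 0.049 and 0.091 RPKM in icKO cardiomyocytes, and was called lower with no filter (−1.44, limma adjusted p = 0.00304; −1.78 after median-ratio scaling). Inhbb, an activin subunit, had 0.301, 0.678 and 0.138 RPKM in Ctrl and 1.25, 1.24 and 1.05 RPKM in icKO cardiomyocytes, and was called higher with no filter on the deposited RPKM (1.60, limma adjusted p = 0.00846) but not after median-ratio scaling (1.15, 0.0505). Bmp2, Bmp5 and Inhba stayed at or below 0.121 RPKM in every adult library. Bmp10 was listed at 0 in all Ctrl samples and had 0.223, 0 and 0 RPKM in icKO cardiomyocytes. Myl7, the atrial myosin light chain, had 7.30 RPKM in that same icKO library and 0.205 to 0.715 RPKM in the other adult libraries, and its part in the Bmp10 value was not tested.

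Of the SMADs that receptors activate, Smad1 of the BMP branch rose and its relative Smad5 was not called. Smad1 had 2.11, 2.25 and 1.83 RPKM in Ctrl and 12.3, 13.2 and 11.2 RPKM in icKO cardiomyocytes. The 3 icKO samples were close together and well above Ctrl (log2 fold change 2.51, standard error 0.119, limma adjusted p = 4.13e-07; 1.96 after median-ratio scaling). Smad5 had 5.22, 5.01 and 4.88 RPKM in Ctrl and 6.74, 6.40 and 5.79 RPKM in icKO cardiomyocytes (log2 fold change 0.32, limma adjusted p = 0.0182), and its direction turned with median-ratio scaling (−0.24, limma adjusted p = 0.0455). Smad1 thereby took 27.0%, 29.5% and 26.3% of the Smad1, Smad5 and Smad9 sum in Ctrl and 61.6%, 65.2% and 63.8% in icKO cardiomyocytes, and Smad5 went from 67.4% ± 2.31 to 32.8% ± 1.14 (SD, n = 3). Smad9 was under the filter, with 0.491, 0.390 and 0.262 RPKM in Ctrl and 0.888, 0.642 and 0.588 RPKM in icKO cardiomyocytes. Of the TGFβ and activin branch, Smad2 had 2.55, 2.65 and 2.38 RPKM in Ctrl and 4.68, 3.65 and 3.98 RPKM in icKO cardiomyocytes, with no overlap. Smad3 had 1.72, 2.53 and 2.505 RPKM in Ctrl and 3.08, 2.55 and 2.32 RPKM in icKO cardiomyocytes, where the groups overlapped. Smad2 and Smad3 were not called at 0.67 and 0.24 on the log2 scale (limma adjusted p = 0.00127 and 0.265), or at 0.12 and −0.30 after median-ratio scaling. Smad4, the common partner, had 11.4, 11.5 and 10.79 RPKM in Ctrl and 26.7, 22.7 and 21.1 RPKM in icKO cardiomyocytes (log2 fold change 1.05, standard error 0.103, limma adjusted p = 1.6e-05). Its call was lost after median-ratio scaling (0.49), quantile normalization (0.52) or scaling without the 20 most abundant genes (0.81). The Smad4 call was also lost with a pseudocount of 1 (0.996) and without icKO replicate 1 (0.96).

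**Figure D3:**
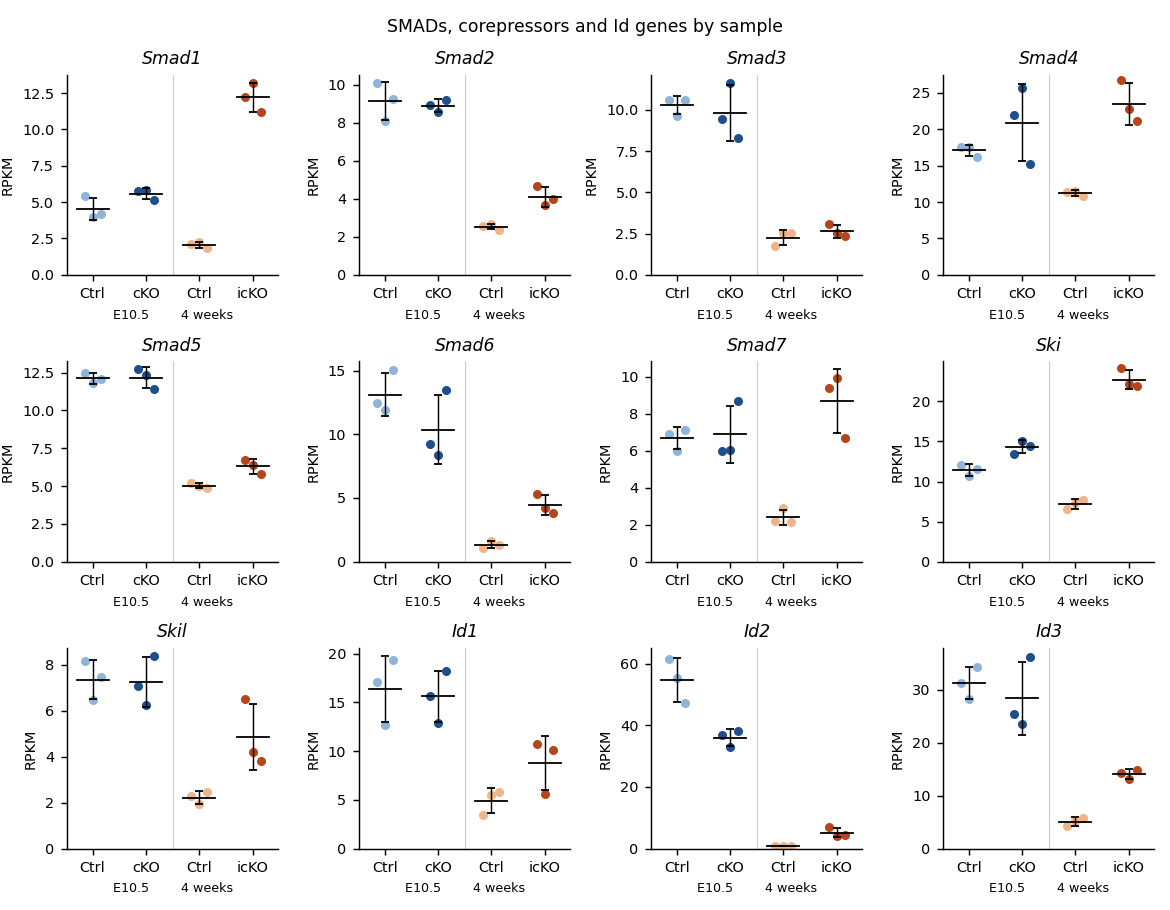
RPKM of 12 SMAD, corepressor and Id genes in every sample (points), with the mean and SD of each group of 3, drawn as in the plot of ligands and receptors. Smad1, Smad6, Smad7, Ski and Id2 stand higher in all 3 icKO samples than in any 4 week Ctrl sample, and Id2 lies lower in all 3 cKO hearts than in any E10.5 Ctrl heart.

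Both inhibitory SMADs, and 2 of the 4 SMAD corepressors and ubiquitin ligases, were called higher on the deposited RPKM (28.0% of all genes). After median-ratio scaling both inhibitory SMADs and 1 of the 4 were called higher (11.1% of all genes). Smad6, which acts mainly on BMP signals, had 1.04, 1.62 and 1.32 RPKM in Ctrl and 5.32, 4.25 and 3.78 RPKM in icKO cardiomyocytes (log2 fold change 1.68, standard error 0.193, limma adjusted p = 4.51e-05; 1.14 after median-ratio scaling). Smad7, which acts on both branches, had 2.22, 2.88 and 2.14 RPKM in Ctrl and 9.39, 9.96 and 6.71 RPKM in icKO cardiomyocytes (log2 fold change 1.80, standard error 0.176, limma adjusted p = 1.64e-05; 1.24 after median-ratio scaling). In both genes every icKO sample was above every Ctrl sample. Ski, a corepressor that binds SMADs, had 6.56, 7.31 and 7.72 RPKM in Ctrl and 24.1, 22.1 and 21.9 RPKM in icKO cardiomyocytes (log2 fold change 1.65, standard error 0.0950, limma adjusted p = 9.07e-07; 1.09 after median-ratio scaling). Its relative Skil had 2.27, 1.92 and 2.47 RPKM in Ctrl and 6.49, 4.23 and 3.83 RPKM in icKO cardiomyocytes (log2 fold change 1.06, standard error 0.201, limma adjusted p = 0.00101). The Skil call was lost after median-ratio scaling (0.51), without Ctrl replicate 2 (0.97) and without icKO replicate 1 (0.84). The ubiquitin ligase Smurf1 had 3.82, 4.00 and 3.67 RPKM in Ctrl and 6.91, 5.96 and 4.64 RPKM in icKO cardiomyocytes, and its relative Smurf2 had 6.38, 4.69 and 6.55 RPKM in Ctrl and 10.3, 7.45 and 10.1 RPKM in icKO. Every icKO sample was higher in both, but neither was called, with log2 fold changes of 0.58 and 0.65 that became 0.02 and 0.09 after median-ratio scaling.

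The Id genes, read here as BMP response genes, all had log2 fold changes above 0 at 4 weeks, as had 73.1% of all genes tested (50.6% after median-ratio scaling). Of the 3, 2 were called higher (28.0% of all genes), or 1 after median-ratio scaling (11.1%). Id2 had 0.713, 0.804 and 0.833 RPKM in Ctrl and 6.92, 4.08 and 4.46 RPKM in icKO cardiomyocytes, with no overlap (log2 fold change 2.54, standard error 0.209, limma adjusted p = 5.82e-06; 2.01 after median-ratio scaling). The Ctrl values rested on about 11.9 to 17.9 reads of Id2 per library and the icKO values on 67.8 to 148 reads. Id3 had 4.21, 5.19 and 5.81 RPKM in Ctrl and 14.2, 13.2 and 14.9 RPKM in icKO cardiomyocytes (log2 fold change 1.47, standard error 0.128, limma adjusted p = 8e-06), and was not called after median-ratio scaling (0.91). Id1 had 3.401, 5.53 and 5.80 RPKM in Ctrl and 10.7, 5.62 and 10.1 RPKM in icKO cardiomyocytes, where icKO replicate 2 lay among the Ctrl values (log2 fold change 0.81, limma adjusted p = 0.0209). Without that library Id1 had a change of 1.10 and was called. Id2 took 7.41% ± 1.01 of the Id pool in Ctrl cells and 18.2% ± 3.32 in icKO cells (both SD, n = 3), whereas it had been the leading Id gene in E10.5 Ctrl hearts at 53.4% ± 5.74.

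The promoters of 3 genes called higher on both scalings, a ligand, an inhibitory SMAD and an Id gene, are shown here to place SMAD sequence motifs beside the values. Each runs from 250 bases before to 50 bases after the RefSeq start (GRCm38.p6), 5′ to 3′ on the strand of the gene. Capitals mark matches to GTCTAGAC (the SMAD palindrome), CAGAC (the short SMAD-binding element with a flanking base, or GTCTG on the other strand) or GGCGCC (a GC-rich SMAD site), none of which holds another. Of the 6 promoters looked up (Id1, Id2, Id3, Smad6, Tgfb2 and Tgfb3), 4 were matched.
Tgfb2, chr1:186705940-186706239, minus strand: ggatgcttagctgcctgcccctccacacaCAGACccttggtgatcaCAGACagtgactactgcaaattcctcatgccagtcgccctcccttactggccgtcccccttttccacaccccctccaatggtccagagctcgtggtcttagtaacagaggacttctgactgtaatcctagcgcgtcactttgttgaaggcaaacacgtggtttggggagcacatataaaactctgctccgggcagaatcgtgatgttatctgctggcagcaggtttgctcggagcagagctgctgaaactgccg
Smad6, chr9:64022010-64022309, minus strand: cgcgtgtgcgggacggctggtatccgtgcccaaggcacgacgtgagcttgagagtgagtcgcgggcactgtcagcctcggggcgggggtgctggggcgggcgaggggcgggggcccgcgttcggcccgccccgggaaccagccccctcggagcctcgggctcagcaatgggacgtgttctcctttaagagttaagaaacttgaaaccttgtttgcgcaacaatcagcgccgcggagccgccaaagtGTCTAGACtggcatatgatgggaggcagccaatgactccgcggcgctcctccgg
Id2, chr12:25096043-25096342, minus strand: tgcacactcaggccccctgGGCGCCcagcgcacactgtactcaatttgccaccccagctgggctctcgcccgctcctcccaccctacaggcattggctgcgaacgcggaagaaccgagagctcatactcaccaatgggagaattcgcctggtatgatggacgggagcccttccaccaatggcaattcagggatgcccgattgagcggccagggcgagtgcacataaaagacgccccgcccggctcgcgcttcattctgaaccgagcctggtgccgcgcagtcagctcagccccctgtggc
In Smad6 the palindrome starts 4 bases before the start site, and 0.213% of the 32851 RefSeq promoters of this length hold it. CAGAC starts 221 and 204 bases before the start site of Tgfb2, and 49.6% of promoters hold it on either strand. GGCGCC starts 231 bases before that of Id2, and 11.9% of promoters hold it. In the Id3 window CAGAC was found at 2 places. A match is a string in a window, and binding was not measured.

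**Figure D4:**
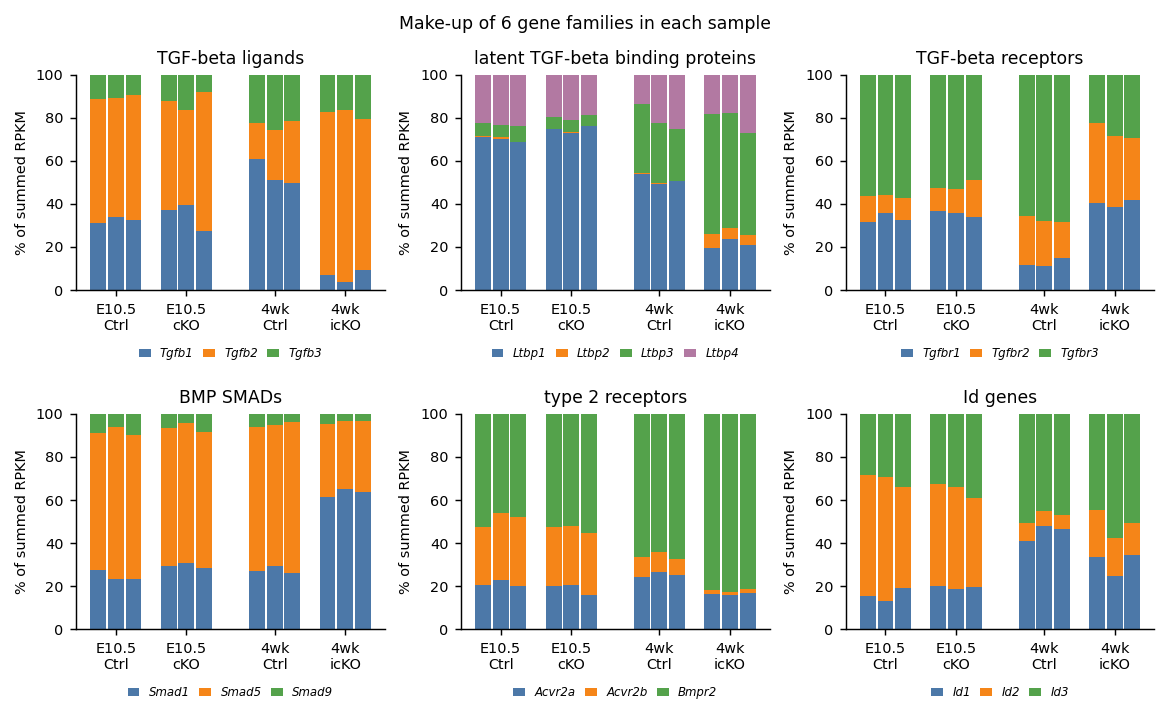
Share of each gene (%, y axis) in the summed RPKM of 6 gene families, with 1 stacked bar per sample and 3 bars per group. Within the 4 week libraries, Tgfb2, Ltbp3, Tgfbr1, Smad1 and Bmpr2 take larger shares in all 3 icKO samples than in any Ctrl sample, and Tgfb1, Ltbp1, Tgfbr3 and Smad5 smaller ones.

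The effect of the knockout differed between the stages for a share of these genes. In a limma fit over all 12 samples, the difference of the effects (4 weeks minus E10.5) was tested for 8909 genes, 29 of them of the pathway. On the deposited RPKM it was called upwards for 13 (34.3% of all genes) and downwards for 1 (5.03%). After median-ratio scaling it was called upwards for 6 (10.1%) and downwards for 2 (12.9%), Tgfbr3 and Ltbp1. The 7 called on both scalings were Tgfb2 (4.81), Id2 (3.13), Tgfb3 (2.46), Smad1 (2.20), Smad6 (2.04), Smad7 (1.77) and Tgfbr3 (−1.54), beside a median difference of 0.69 over all genes. At E10.5 the 15 genes called at 4 weeks had lain between −0.60 (Id2) and 0.32 (Ski). For Id2 the effects had opposite signs, −0.60 at E10.5 and 2.54 at 4 weeks, and the difference was 2.48 after median-ratio scaling (limma adjusted p = 2e-06). But Id2 averaged 0.783 RPKM in 4 week Ctrl, under the filter, and was tested only because icKO was high. Its 4 week effect on the deposited RPKM therefore had to be upwards for it to be tested. Whole embryonic hearts and isolated adult cardiomyocytes, and the 2 Cre drivers, differ with the stage, so these cannot be told apart.

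**Figure D5:**
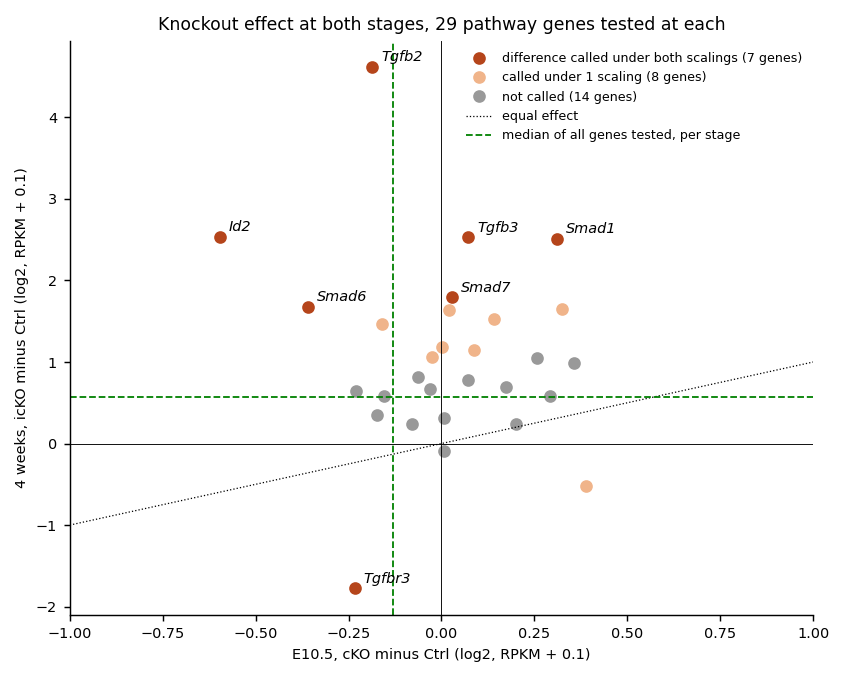
Knockout effect at E10.5 (x axis, log2) against that at 4 weeks (y axis, log2) for the 29 pathway genes tested at both stages, with dashed lines at the medians of all genes tested and a dotted line of equal effect; the axes have different ranges. The 7 named genes have a difference called on both scalings, and Id2, which passed the 4 week filter only through icKO, lies at −0.60 and 2.54.

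A wider set of 95 other genes of these pathways gave the setting. At E10.5, 58 were tested and 1 was called, Cdkn1a, a cell cycle inhibitor that several pathways induce. It had 4.34, 3.54 and 4.46 RPKM in Ctrl and 27.1, 40.5 and 12.97 RPKM in cKO hearts (log2 fold change 2.54, limma adjusted p = 0.00942). At 4 weeks, 28 of 49 tested were higher and 4 lower, where 28.0% and 8.45% of all genes were, or 18 and 7 after median-ratio scaling (11.1% and 15.9% of all genes). Of the 28, 9 averaged under 1 RPKM in Ctrl and passed the filter only through icKO, so they had to differ to be counted. Of these 9, 8 were also called higher after median-ratio scaling. The 49 had a median log2 fold change of 1.13 (0.58 after median-ratio scaling). Extracellular binding and activation genes were higher in 8 of 11 and lower in 2, or 6 and 2 after median-ratio scaling. Response genes were higher in 11 of 16 and lower in 1, or 9 and 3. Of those higher, the extracellular Fstl1 and Fbn1 and the response genes Postn, Col1a1, Col1a2, Col3a1, Fn1 and Cdkn1c passed the filter only through icKO. Membrane and intracellular modulators were higher in 7 of 17 and lower in 1 on the deposited RPKM, but 2 were higher and 2 lower after median-ratio scaling. The highest log2 fold changes among those called were those of Postn, a matrix protein (0.249, 0.504 and 0.348 RPKM in Ctrl, 26.2, 25.0 and 22.04 RPKM in icKO; log2 fold change 5.75, limma adjusted p = 1.34e-07), the collagen gene Col1a1 (0.320, 0.356 and 0.629 RPKM in Ctrl, 14.9, 8.001 and 11.4 RPKM in icKO; 4.43, limma adjusted p = 1.23e-06) and Fstl3, an activin-binding inhibitor (2.01, 2.18 and 0.934 RPKM in Ctrl, 38.1, 37.6 and 31.5 RPKM in icKO; 4.39, limma adjusted p = 1.2e-06). Postn and Col1a1 are among the 9 that passed the filter only through icKO. The 4 lower genes were Itgb6, an integrin subunit that frees latent TGFβ (2.24, 3.01 and 4.74 RPKM in Ctrl, 0.181, 0.183 and 0.341 RPKM in icKO; −3.32), the BMP coreceptor Rgma (8.06, 7.05 and 5.98 RPKM in Ctrl, 1.201, 2.26 and 2.58 RPKM in icKO; −1.81), the TAK1 partner Tab1 (4.67, 5.93 and 5.61 RPKM in Ctrl, 1.39, 2.38 and 2.33 RPKM in icKO; −1.40) and the matricellular gene Cyr61 (−1.19), and all 4 were also lower after median-ratio scaling.

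Markers of other cells were also compared in the adult samples. Over all genes tested, 28.0% were called higher and 8.45% lower, or 11.1% and 15.9% after median-ratio scaling. The 10 fibroblast markers summed to 5.54 to 9.46 RPKM in Ctrl and 65.2 to 92.4 RPKM in icKO samples. The 6 that passed the filter were all called higher (5 after median-ratio scaling), but 5 of them (Col1a1, Col1a2, Col3a1, Postn and Mfap5) averaged under 1 RPKM in Ctrl and passed only because icKO was high. Of the 6, 5 (Col1a1, Col1a2, Col3a1, Dcn and Postn) are also among the 28 other pathway genes called higher. The defining fibroblast markers were low, with Pdgfra at 0.273, 0.240 and 0.284 RPKM in Ctrl and 1.64, 0.755 and 0.402 RPKM in icKO, and Tcf21 at 0.123, 0 and 0 RPKM in Ctrl and 0.337, 0.437 and 0.611 RPKM in icKO. Endothelial markers summed to 12.9 to 34.9 RPKM in Ctrl and 33.9 to 63.9 RPKM in icKO (3 of 10 higher, 0 after median-ratio scaling), macrophage markers to 3.35 to 5.94 and 8.47 to 11.9 RPKM (2 of 3 tested higher, 0 after median-ratio scaling). Of the defining macrophage markers, Adgre1 had 0.047, 0.125 and 0.111 RPKM in Ctrl and 0.278, 0.281 and 0.262 RPKM in icKO, and Csf1r had 0.313, 0.382 and 0.411 RPKM in Ctrl and 0.917, 0.648 and 0.841 RPKM in icKO. Both were under the filter, with all icKO samples above Ctrl. Of the 3 macrophage markers tested, C1qa and C1qb averaged 0.837 and 0.595 RPKM in Ctrl and passed the filter only through icKO. Of these, C1qb was called higher. Mural markers summed to 61.3 to 69.7 RPKM in Ctrl and 23.8 to 46.7 RPKM in icKO, with 2 of 4 tested higher (Cspg4 and Pdgfrb) and 1 lower (Abcc9), or 1 and 1 after median-ratio scaling. Abcc9, which encodes a subunit of a potassium channel that cardiomyocytes can also express, had 55.0, 59.7 and 50.6 RPKM in Ctrl and 2.85, 4.40 and 7.67 RPKM in icKO. Without it the mural sum was 6.32 to 17.03 RPKM in Ctrl and 20.9 to 39.1 RPKM in icKO. Pdgfrb averaged 0.963 RPKM in Ctrl, under the filter, and was tested only because icKO was high. Epicardial markers summed to at most 4.60 RPKM, lymphocyte markers to at most 0.147 RPKM, endocardial markers to at most 8.14 RPKM and erythroid markers to at most 26.0 RPKM in any adult library, and 1 of these, the endocardial Plvap, was called higher. Plvap averaged 0.550 RPKM in Ctrl and likewise passed the filter only through icKO. Cardiomyocyte markers summed to 20820 to 21610 RPKM in Ctrl and 7255 to 9141 RPKM in icKO, with 5 of 10 lower (7 after median-ratio scaling). By the adjusted p alone 7 were lower (18.1% of all genes) and 2 higher (60.6%). The 2 were Actn2 (log2 fold change 0.86, or 0.29 after median-ratio scaling) and Nkx2-5 (0.74, or 0.18). Of the defining markers, Myh6 was at −3.34, Tnnt2 at −0.75 and Actn2, with all icKO samples above Ctrl, at 0.86. By their means in icKO, the 10 fibroblast markers spanned from Tcf21 (0.337 to 0.611 RPKM) to Postn (22.04 to 26.2 RPKM). Tgfb2 had 24.5 to 34.9 RPKM and Tgfb3 6.80 to 7.28 RPKM there, and levels of different genes do not show which cells made them. The part of fibroblasts in the pathway values was not tested.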

How the data were processed

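RNA-seq of 12 mouse samples was compared, in 4 groups of 3 taken from the sample labels. RPKM were deposited by the authors, who aligned reads to the GRCm38 genome and counted them per gene. Their processing notes name cutadapt 2.6, STAR 2.5.3a, HOMER 4.11.1 and DESeq2 1.12.4, without roles, and how the total reads in RPKM were counted is not given in the sources used here. The deposited log2 fold changes, p-values (FDR) and mean RPKM were not used. The knockout columns of the E10.5 table are headed icKO, and were taken as the cKO samples by their labels.

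The pathway genes and other gene lists were chosen with earlier results of these data known. Each stage was fitted with limma 3.58.1 (R 4.3.3; lmFit, eBayes with trend) on log2(RPKM + 0.1), two-sided, keeping genes whose RPKM averaged above 1 in its 6 samples, with Benjamini-Hochberg adjustment over all genes tested. The call asked for an adjusted p below 0.05 and a change beyond 1 on the log2 scale. The fit was tested on simulated data. Every listed gene was accounted for: values per sample at 4 weeks were given for those called and the rest of their families, and values per sample for the 3 other pathway genes with the highest and the lowest log2 fold change among those called per stage. The others named, among them Myl7 and Cdh5, were chosen after their values were seen, as were family shares, which have no test.

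Depth was estimated from the spacing of RPKM up to 12 reads, with RefSeq transcript lengths. Of these values, 56.4% to 63.4% lay within 0.1 of a whole read, so the depths are approximate and no count test was run. Positions are from GENCODE and promoters from RefSeq. Same-numbered samples deviated with correlations of −0.07 to 0.15, so replicate numbers were not taken as pairs. Alternatives were pseudocounts of 1 and 0.01, no filter, a mean RPKM above 5, median-ratio and quantile scaling, scaling without the 20 most abundant genes, no trend, limma's treat with a minimum fold of 1.2, a replicate block and each replicate left out.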

Additional observations from a re-analysis of the deposited data

Results flagged for a closer look

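In 7 of the 29 pathway genes tested at both stages, the knockout effect differed by a test of the difference itself, on both scalings (limma over all 12 samples). Over all 8909 genes tested, such a difference was called upwards for 34.3% and downwards for 5.03% on the RPKM as deposited. After median-ratio scaling these shares were 10.1% and 12.9%, and the share of all genes called on both scalings was not counted. The difference, 4 weeks minus E10.5 on the log2 scale, was 4.81 for Tgfb2, 2.46 for Tgfb3, 2.20 for Smad1, 2.04 for Smad6, 1.77 for Smad7 and 3.13 for Id2, and −1.54 for Tgfbr3. After median-ratio scaling it was 4.14, 1.80, 1.53, 1.38, 1.10 and 2.48 for the 6 that were higher, in the same order, and −2.22 for Tgfbr3. Of these, Id2 was under the filter in 4 week Ctrl (0.783 RPKM on average) and was tested only because its icKO samples were high. No group had the 4 samples that a check for a single outlying sample needs.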

How the results depend on the processing

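The number of pathway genes called at 4 weeks, 14 higher and 1 lower, became 8 higher and 2 lower with median-ratio scaling and with quantile normalization, 8 higher with a mean RPKM above 5 and 2 lower with no RPKM filter. The 14 differences between stages became 8 with median-ratio scaling, 8 with quantile normalization and 7 with a mean RPKM above 5, a filter that also tested fewer of the genes. A pseudocount of 1 lost those of Tgfbr1, Acvr1 and Skil. Scaling without the 20 most abundant genes lost the same and those of Bmpr2 and Ski, and gained that of Ltbp1. Leaving out 1 library gave 12 to 17 higher (12 without icKO replicate 1, 17 without Ctrl replicate 3), 1 to 1 lower and 12 to 16 differences, and 0 to 0 at E10.5 in either direction, as did every other alternative at E10.5. With the replicate block the counts were 14, 1 and 14, and not every sample correlated best with its own number. Of 1019 values of single genes recomputed, 988 kept their call, 23 lost it, 8 gained it and 0 reversed. At E10.5, Id2 was past an adjusted p of 0.05 on the deposited RPKM but not with no filter (0.0633), without a trend (0.0785), with treat (0.386) or with the replicate block (0.0545). At 4 weeks Bmp2, Bmp10 and Inhba were at or near the floor of 3 reads in most libraries, and a difference in them was not detectable at this depth. Bmp5 rested on at most 6.96 reads per library, and with no filter its change was 0.72 (limma adjusted p = 0.0250; 0.57 and 0.0725 after median-ratio scaling).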
